A study of Mus musculus with 24 samples.

Results

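Interferon-stimulated effector genes encode the proteins that carry out the antiviral programme of interferon, and 37 of them were followed here across microglia and astrocytes of the mouse brain. They were taken by name from a list of well known family members: all 37 were found among the 53700 gene identifiers counted in microglia and the 55487 counted in astrocytes. The libraries came from adult Serpine2-/- mice, called knockouts, and from littermates that carried 1 or more working Serpine2 alleles, called controls, after an injection of saline or of lipopolysaccharide (LPS), a bacterial outer membrane component that triggers innate immune signalling. This gave 8 groups of 3 libraries: saline controls, saline knockouts, LPS controls and LPS knockouts, each for microglia and for astrocytes. For microglia the whole brain was dounced and spun in Percoll, for astrocytes the cortex was digested with papain, and both cell types were then caught on antibody-coated dishes. The control group pools mice that may have 1 or 2 working alleles, both sexes were used, and dose, route and time after injection are not given in the sources used here. Nothing in the labels says whether a library holds 1 mouse or several, so p-values measure only the spread between these libraries, which may be technical.

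Type I interferon binds its receptor IFNAR on the cell surface, and the kinases JAK1 and TYK2 then phosphorylate transcription factors of the STAT family. With IRF9 these form a complex that enters the nucleus and binds interferon-stimulated response elements (ISRE) upstream of the effector genes. The effectors trim, sense, tag or trap viral nucleic acids and proteins, and many are also switched on in brain glia when LPS is given to an animal. The members were read by role: IFIT proteins that bind foreign RNA, the ubiquitin-like ISG15 system, the oligoadenylate synthetases (OAS), the Mx GTPases, nucleic acid sensors, nucleotide and RNA-degrading enzymes, membrane restriction factors, an ADP-ribosylation complex, and a set of 8 others. Several sit beside each other on the GRCm38 genome: Ifit2, Ifit3, Ifit3b and Ifit1 within chr19:34550694-34650009, Oasl2 and Oasl1 within chr5:114896936-114937915, Oas2, Oas3 and Oas1a within chr5:120730333-120907521, and Parp14, Dtx3l and Parp9 within chr16:35832874-35972605. Ifit3 and Ifit3b are near-identical copies, and Parp9 and Dtx3l overlap at their start sites, so reads of each pair could be lost or misassigned and their values are uncertain.

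The promoters hold a feature that the choice of members by name did not use. The 250 bases upstream of a RefSeq start site (GRCm38.p6) were at hand for 27 members and were searched on both strands for GAAANNGAAA, the core of the ISRE, and for TTCNNNGAA, the core of the gamma-activated site; the 2 motifs can overlap. GAAANNGAAA was found for 11 of the 27 members (40.7%), against 936 of 27025 genes (3.46%) in the same table. TTCNNNGAA was found for 6 of the 27 (22.2%), against 8.13% of genes. The 5 windows below are shown because they cover members that differed in their response, with every GAAANNGAAA match, or its reverse complement, in capitals.
Ifit1: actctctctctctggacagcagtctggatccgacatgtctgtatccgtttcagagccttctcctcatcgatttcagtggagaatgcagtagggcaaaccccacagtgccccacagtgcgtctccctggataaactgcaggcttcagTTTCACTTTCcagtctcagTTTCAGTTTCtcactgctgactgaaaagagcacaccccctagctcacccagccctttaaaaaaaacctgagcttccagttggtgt
Isg15: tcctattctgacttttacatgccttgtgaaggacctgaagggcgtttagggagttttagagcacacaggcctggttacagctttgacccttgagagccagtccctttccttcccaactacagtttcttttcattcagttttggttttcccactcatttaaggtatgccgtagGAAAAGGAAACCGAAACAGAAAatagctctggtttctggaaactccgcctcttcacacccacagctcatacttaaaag
Ddx60: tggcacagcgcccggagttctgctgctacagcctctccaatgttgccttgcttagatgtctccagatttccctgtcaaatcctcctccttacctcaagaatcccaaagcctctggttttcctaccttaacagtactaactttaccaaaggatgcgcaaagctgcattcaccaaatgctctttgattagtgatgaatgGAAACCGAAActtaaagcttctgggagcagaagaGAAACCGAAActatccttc
Oas1a: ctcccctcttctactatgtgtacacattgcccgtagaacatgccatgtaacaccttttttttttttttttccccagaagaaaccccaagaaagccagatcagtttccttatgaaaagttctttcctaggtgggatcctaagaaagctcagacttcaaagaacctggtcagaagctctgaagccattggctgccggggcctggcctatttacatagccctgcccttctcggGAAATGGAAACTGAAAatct
Ifitm2: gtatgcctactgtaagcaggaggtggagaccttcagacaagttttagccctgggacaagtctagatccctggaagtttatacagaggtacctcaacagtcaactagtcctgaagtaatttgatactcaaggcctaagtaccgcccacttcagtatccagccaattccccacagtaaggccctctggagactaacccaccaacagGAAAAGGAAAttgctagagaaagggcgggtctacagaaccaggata
These lie at chr19:34640639-34640888 (plus strand), chr4:156200819-156201068 (minus), chr8:61927837-61928086 (plus), chr5:120907526-120907775 (minus) and chr7:140955962-140956211 (minus), each printed in the direction of transcription and ending at the base before the start site. Isg15 holds 3 cores and Oas1a 2 that overlap each other, Ifit1 and Ddx60 hold 2 separate ones, and Ifitm2 holds 1. The match nearest the start ends 75 bases upstream of it in Ifit1, 56 in Isg15, 9 in Ddx60, 4 in Oas1a and 36 in Ifitm2. The other members with a match were Bst2, Ifit3, Ifit3b, Oas3, Rsad2 and Trim30a. No match was found in these letters for 16 others, among them Ifitm3, Lgals3bp and Oasl2. A match is a description of the sequence and not evidence of binding.

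Microglia libraries held 4506142 to 13621776 counts in genes, and astrocyte libraries 10944765 to 25135252. Values are given as CPM, the count scaled to the size of its library after TMM normalisation within a cell type. Serpine2, the targeted gene, checked the labels: it read 62.2, 46.6 and 96.5 CPM in saline controls and 20.1, 17.6 and 20.7 CPM in saline knockouts of microglia, and 92.6, 169 and 163 against 17.8, 17.4 and 22.2 CPM in astrocytes. It fell by 2.62 on the log2 scale over both injections in astrocytes (adjusted p = 9.1e-07) and by 1.86 in microglia (adjusted p = 0.0022). The markers of each labelled cell type were present in every group. In astrocyte libraries 8 astrocyte markers summed to 14359 to 21293 CPM. In microglia libraries 8 microglia markers summed to 1336 to 4967 CPM, and other markers reached a similar level. There 8 neuron markers summed to 1875 to 2867 CPM, 6 oligodendrocyte markers to 1343 to 4087 CPM and neutrophil markers to 368 to 2465 CPM. In some microglia libraries the neuron sum was above the microglia sum, as in LPS knockout 1 (2221 against 1336 CPM). In others it was below, as in saline control 1 (2218 against 4967 CPM). In 23 of 24 libraries sex-linked transcripts fitted the labelled sex, and they did not in microglia LPS control 1. By label, microglia libraries numbered 1 and 3 were male in saline and female in LPS, and those numbered 2 the reverse. Astrocyte libraries were labelled male apart from saline control 1, saline knockout 3, LPS control 3 and LPS knockout 3.

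In microglia LPS raised a limited set of the members. Of the 33 that passed the filter on low counts in the saline libraries alone, edgeR's quasi-likelihood test called 15 over both genotypes, all higher, where 2.19% of the 22230 genes tested were called higher (adjusted p under 0.05 after Benjamini-Hochberg correction over all genes). Their median log2 fold change was 0.91, against -0.03 over all genes. Ifit3b, Oasl1 and Rsad2 passed only through the LPS libraries, and Oasl1 alone of these was called, which makes 16 of 36 tested. The largest changes, as log2 fold ± standard error (SE), were 3.81 ± 0.49 for Oasl1, 3.09 ± 0.31 for Zbp1, 2.95 ± 0.35 for Ifitm2 and 2.75 ± 0.29 for Ifitm3. In bulk RNA, more cells that express a gene and more RNA per cell cannot be told apart. Ifi44 was not tested in microglia, with 1 count in the saline controls and 7 in the LPS controls.

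All 3 membrane restriction factors rose in microglia. Ifitm3, which blocks fusion of enveloped viruses with host membranes, read 17.8, 13.9 and 37.1 CPM in saline controls and 120.5, 102 and 229.9 CPM in LPS controls, against 22.4, 32.3 and 40.1 CPM in saline knockouts and 221.5, 138 and 301 CPM in LPS knockouts. Every LPS library stood above every saline library. Its relative Ifitm2 went from 2.94, 0.513 and 3.18 to 15.4, 16.6 and 28.5 CPM in controls and from 3.12, 1.57 and 4.71 to 25.9, 13.2 and 24.7 CPM in knockouts, again without overlap. Bst2 (tetherin), which holds budding virions at the cell surface, went from 6.22, 3.77 and 2.99 to 15, 13 and 28.2 CPM in controls and from 7.29, 6 and 4.71 to 21.3, 15.3 and 24.8 CPM in knockouts. The adjusted p-values over both genotypes were 6e-05, 0.00014 and 0.0003 for the trio.

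Of the 5 OAS genes, a family in which active enzymes make oligoadenylates that activate RNase L, 4 rose in microglia. Oasl2 read 3.28, 5.99 and 3.63 CPM in saline controls and 17, 14.4 and 28.5 CPM in LPS controls, and 6.60, 8.03 and 8.73 against 39.3, 19.9 and 33.8 CPM in knockouts, a log2 fold change of 2.11 ± 0.24 SE, adjusted p = 9.4e-05. Oas1a went from 1.38, 2.05 and 3.18 to 13.7, 6.36 and 16.1 CPM in controls and from 2.43, 3.79 and 2.30 to 15.8, 12.5 and 22.9 CPM in knockouts (2.48 ± 0.29 SE, adjusted p = 0.00012). The lowest LPS library lay above the highest saline library for both genes. Oasl1, which limits translation of Irf7, went from 0.173, 0 and 0.544 to 4.07, 2.35 and 6.55 CPM in controls and from 0, 0.462 and 0.689 to 5.26, 4.03 and 8.94 CPM in knockouts, from 0 counts in 1 saline library of each genotype. Oas2 rose too (1.56 ± 0.27 SE, adjusted p = 0.0042), and Oas3 was not called (0.66, adjusted p = 0.42).

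Of the 5 sensors, Zbp1 and Dhx58 were called higher in microglia, and the call for Dhx58 held in only 4 of 12 fits with 1 library left out. Zbp1, a sensor of Z-form nucleic acids, went from 2.94, 1.20 and 1.36 to 12.2, 9.82 and 19.4 CPM in controls and from 1.22, 1.85 and 2.53 to 16.3, 10.8 and 26.3 CPM in knockouts (3.09 ± 0.31 SE, adjusted p = 3.8e-05). No LPS library overlapped a saline one. Eif2ak2, the kinase that stops translation on double-stranded RNA, read 7.95, 12.5 and 9.16 CPM in saline controls and 8.52, 11.7 and 9.99 CPM in LPS controls, against 14.4, 9.05 and 8.50 CPM in saline knockouts and 20.4, 8.91 and 10.6 CPM in LPS knockouts. Its groups overlapped (0.19, adjusted p = 0.8). Ddx60 (0.20, adjusted p = 0.82) and Ifih1 (0.75, adjusted p = 0.17) were not called.

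Among the other roles in microglia, Lgals3bp, which encodes a secreted glycoprotein, went from 65.6, 23.8 and 62.1 to 228, 129 and 323 CPM in controls and from 48.4, 40.1 and 39.1 to 150.3, 216 and 235 CPM in knockouts (2.20 ± 0.26 SE, adjusted p = 0.00013). Ifi27l2a, a small mitochondrial protein gene, went from 3.80, 1.88 and 4.45 to 27.4, 9.82 and 46.8 CPM in controls and from 6.94, 8.22 and 4.48 to 23, 17.4 and 23.7 CPM in knockouts (2.36 ± 0.33 SE, adjusted p = 0.00072). Both sets of LPS values lay above all saline values. Samhd1, which hydrolyses the nucleotides needed for viral DNA synthesis, went from 40.8, 46.4 and 32.1 to 68.9, 59.6 and 77.4 CPM in controls and from 53.3, 39.4 and 42.2 to 120.4, 67 and 86.6 CPM in knockouts (0.91 ± 0.17 SE, adjusted p = 0.0055). Usp18, the protease that removes ISG15 and dampens receptor signalling, rose (1.46 ± 0.25 SE, adjusted p = 0.0038). Ifit3 (1.38, adjusted p = 0.043), Mx1 (1.18, adjusted p = 0.045), Dhx58 (1.05, adjusted p = 0.045) and the nuclear body protein gene Sp100 (1.20, adjusted p = 0.015) were also called, but with 1 library left out Ifit3 passed in only 2 of 12 fits, Mx1 in 3 and Dhx58 in 4, whereas Sp100 passed in 11 and was lost without LPS control 3.

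Some classical members did not pass in microglia. Ifit1 read 4.49, 4.96 and 3.99 CPM in saline controls, 5.95, 4.91 and 6.23 in LPS controls, 2.08, 4.34 and 3.91 in saline knockouts and 5.89, 4.67 and 5.66 in LPS knockouts (0.49 ± 0.21 SE, adjusted p = 0.34). Herc6, the mouse ligase that attaches ISG15 to proteins, was the 1 member with a negative estimate, -0.22 ± 0.32. It read 7.08, 19.3 and 7.53 CPM in saline controls, 8.89, 5.32 and 5.26 in LPS controls, 8.33, 5.72 and 8.96 in saline knockouts and 15.5, 8.70 and 4.96 in LPS knockouts. Its groups overlapped throughout. Cmpk2, a nucleotide kinase gene next to Rsad2, gave 0.01 ± 0.20, and its 95% interval was -0.41 to 0.43. None of the 3 ADP-ribosylation genes was called, with values of 0.37 for Parp9, 0.44 for Parp14 and 0.36 for Dtx3l. Isg15 gave 1.14 ± 0.34 SE (adjusted p = 0.11) and Rsad2, or viperin, 1.28 ± 0.39 SE (adjusted p = 0.13). The remaining members not called were Ifit2, Ifit3b, Mx2, Isg20, Ifi35, Xaf1, Rtp4 and Trim30a, at 0.57, 0.58, 0.40, 0.86, 0.78, 0.96, 0.77 and 0.66 in that order.

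Library by library, some microglial members separated by injection and others did not. Usp18 went from 1.90, 3.25 and 2.72 to 6.11, 3.46 and 7.84 CPM in controls and from 2.08, 2.40 and 2.30 to 9.40, 5.52 and 8.76 CPM in knockouts, and Ifit3 from 1.38, 1.88 and 1.18 to 3.77, 3.25 and 2.68 CPM and from 1.39, 0.462 and 2.30 to 6.01, 2.97 and 3.27 CPM. Neither overlapped between injections. Isg15 read 0.864, 0.513 and 2.09 CPM in saline controls, 3.92, 2.14 and 4.40 in LPS controls, 2.43, 1.85 and 2.07 in saline knockouts and 2.76, 2.55 and 5.49 in LPS knockouts. Parp14 held 12.8, 8.73 and 8.62 CPM in saline controls and 13.4, 12.2 and 15.1 CPM in LPS controls, against 16.7, 8.03 and 8.04 CPM in saline knockouts and 22.5, 11.7 and 9.47 CPM in LPS knockouts. For Ddx60 the values were 1.73, 4.79 and 5.08 CPM in saline controls and 2.71, 4.22 and 2.90 CPM in LPS controls, against 4.86, 2.77 and 2.99 CPM in saline knockouts and 6.76, 4.67 and 4.96 CPM in LPS knockouts. For these 3 genes LPS and saline libraries overlapped.

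By genotype, 9 members rose in control microglia (0.526% of genes called higher), 8 of them among the 33 that passed on saline alone, and 10 in knockout microglia (1.01%), 9 of them among the 33. In both genotypes 8 were called: Bst2, Ifitm2, Ifitm3, Lgals3bp, Oas1a, Oasl1, Oasl2 and Zbp1, which is 8 of the 9 and 8 of the 10. With 1 library left out the call for Bst2 in knockouts held in 2 of 6 fits and that for Oasl1 in controls in 3. All 6 LPS libraries lay above all 6 saline libraries for 13 of the 33 members that passed on saline alone and for Oasl1, and no member lay wholly below, where 1.92% of genes lay wholly above. Leaving out 1 library at a time kept 12 of the 16 calls over both genotypes in every fit, the exceptions being Ifit3, Mx1, Dhx58 and Sp100. Without saline knockout 2, 5 members were called in the knockouts. Over all genes, fits of the knockouts with 1 library left out called 112 to 215 in either direction.

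In astrocytes most members rose. Of the 21 members that passed the filter on saline libraries alone, edgeR called 20 higher over both genotypes, where 4.98% of the 18188 genes tested were called higher, and Herc6 alone was not called (1.42 ± 0.48 SE, adjusted p = 0.11). The other 15 tested members passed only through the LPS libraries, so that a difference was built into their selection. They were Ifit1, Isg15, Usp18, Oas1a, Oas2, Oasl1, Mx1, Dhx58, Zbp1, Isg20, Bst2, Ifi44, Ifi27l2a, Ifi35 and Sp100. Of them 13 were called, and Oas2 (2.27, adjusted p = 0.15) and Oasl1 (2.64, adjusted p = 0.056) were not. The median log2 fold change was 2.94 over the 21 and 0.01 over all genes. Oas3 was not tested: it had 0 counts in saline knockouts against 23 in LPS knockouts, at least 6.26-fold higher against a floor of 3 counts over the group, and 1 count in saline controls against 0 in LPS controls.

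**Figure D1:**
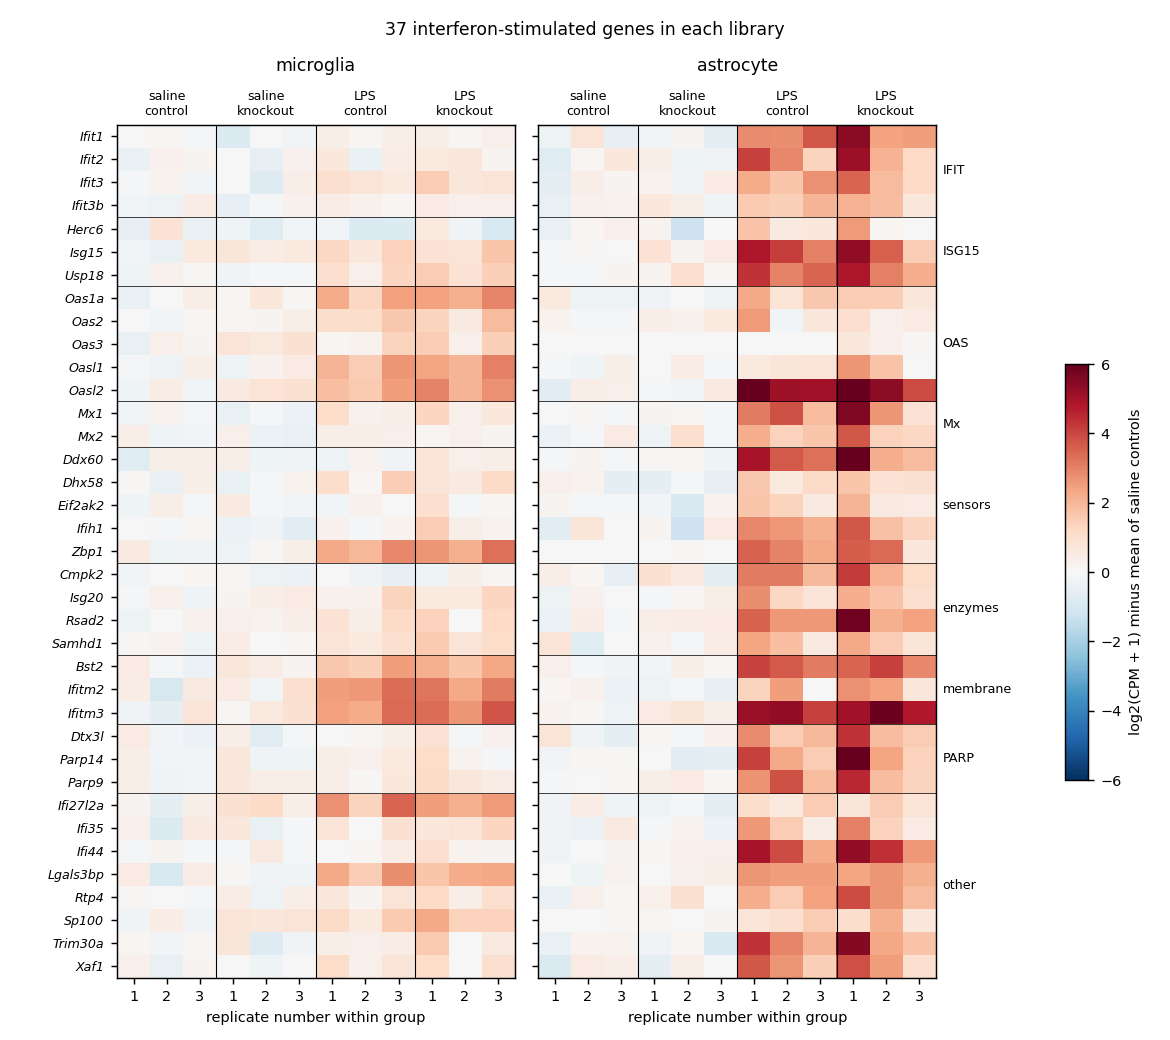
Each of the 37 members (vertical axis, grouped by role) in each of the 24 libraries (horizontal axis, by group and replicate number), as log2(CPM + 1) minus the mean of the 3 saline control libraries of that cell type; red is higher and blue lower. The astrocyte LPS columns are red for nearly all members and, for most, darkest in knockout 1, while the microglia LPS columns are red mainly for Oas1a, Oasl1, Oasl2, Zbp1, Ifi27l2a, Lgals3bp and the membrane factors.

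The most even astrocyte response, by the ratio of the highest to the lowest LPS library, was that of Lgals3bp. It read 44.3, 35.9 and 50.5 CPM in saline controls, 278, 251 and 252 in LPS controls, 43.5, 51.2 and 56 in saline knockouts and 228, 275 and 194 in LPS knockouts (2.39 ± 0.16 SE, adjusted p = 1.2e-07). Ifitm3 went from 3.78, 3.33 and 2.27 to 148, 162 and 68.6 CPM in controls and from 4.75, 5.82 and 4.45 to 132, 241 and 111 CPM in knockouts (5.17 ± 0.28 SE, adjusted p = 1.5e-08). All LPS libraries stood far above all saline libraries for both genes. Per kilobase of exon, Ifitm3 was the highest of the 37 members after LPS in both cell types, at a mean of 212 CPM per kb in astrocytes and 274 CPM per kb in microglia over 6 libraries. Bst2 went from 0.459, 0.0913 and 0 to 18.6, 13.8 and 8.99 CPM in controls and from 0.0528, 0.538 and 0.215 to 12.2, 19.1 and 7.55 CPM in knockouts (5.85 ± 0.54 SE, adjusted p = 1.2e-05), and Ifitm2 gave 2.61 ± 0.47 SE (adjusted p = 0.0025).

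Of the 4 OAS genes tested in astrocytes, Oasl2 and Oas1a rose, and only Oasl2 had passed the filter on saline libraries alone. Oasl2 read 0.510, 2.19 and 2 CPM in saline controls and 159, 82.3 and 79.6 CPM in LPS controls, and 1.27, 1.17 and 2.58 against 163, 101 and 35.4 CPM in knockouts (6.0 ± 0.47 SE, adjusted p = 1.3e-05). The lowest LPS value, in knockout 3, was still well above the highest saline value. Oas1a went from 0.817, 0 and 0 to 4.81, 1.17 and 2.72 CPM in controls and from 0.0528, 0.195 and 0 to 2.50, 2.42 and 0.970 CPM in knockouts (3.88 ± 0.89 SE, adjusted p = 0.013). The 3 members of the ISG15 system differed in size. Isg15, the ubiquitin-like modifier itself, went from 0.102, 0.228 and 0.162 to 32.9, 19.4 and 8.33 CPM in controls and from 1.11, 0.293 and 0.646 to 45.9, 13.1 and 2.25 CPM in knockouts (5.89 ± 0.74 SE, adjusted p = 0.00058). Usp18 went from 0.102, 0.0913 and 0.325 to 22.3, 8.12 and 12 CPM and from 0.317, 1.32 and 0.215 to 32.8, 8.40 and 4.29 CPM in the same order (5.45 ± 0.62 SE, adjusted p = 0.00011). Herc6 overlapped between injections in knockouts, at 13.9, 4.45 and 11.8 CPM in saline and 75.3, 13.2 and 11.9 CPM in LPS, and read 8.52, 13.2 and 15 CPM in saline controls and 41.4, 17.6 and 19 CPM in LPS controls.

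All 4 IFIT genes were called higher in astrocytes, Ifit2 in only 5 of 12 fits with 1 library left out. Of the 4, Ifit1 had passed the filter only through the LPS libraries. Ifit1 went from 0.204, 1.55 and 0.0541 to 9.67, 9.22 and 18.4 CPM in controls and from 0.317, 0.635 and 0 to 62.9, 7 and 7.40 CPM in knockouts (5.26 ± 0.89 SE, adjusted p = 0.0063). Ifit3 went from 5.66, 11.8 and 9.95 to 44.9, 30.3 and 65.1 CPM in controls and from 10.4, 7.38 and 12.7 to 109, 35.5 and 21.6 CPM in knockouts (2.40 ± 0.36 SE, adjusted p = 0.0012). In neither gene did LPS and saline libraries overlap. Ifit2 gave 3.95 (adjusted p = 0.025) and Ifit3b 1.69 (adjusted p = 0.0021). Both Mx GTPases rose, Mx1 having passed the filter only through the LPS libraries. Mx2 went from 1.33, 1.78 and 3.19 to 12.8, 6.95 and 8.41 CPM in controls and from 1.42, 4.98 and 1.79 to 39.1, 6.73 and 6.13 CPM in knockouts (2.41 ± 0.48 SE, adjusted p = 0.0066). Mx1 went from 0.102, 0.137 and 0.0541 to 8.68, 14.3 and 3.05 CPM and from 0.211, 0.147 and 0 to 52.7, 5.87 and 1.02 CPM in the same order (6.78 ± 1.05 SE, adjusted p = 0.0031). LPS knockout 1 was the highest library for both.

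All 5 sensors rose in astrocytes, though Zbp1 and Dhx58 had passed the filter only through the LPS libraries. Zbp1 had 2 counts in the saline controls and 378 in the LPS controls, a ratio of 241 with an exact counting interval of 66.3 to 1999, and 2 against 509 counts in knockouts, a ratio of 208 (57.3 to 1721); these intervals cover counting error only. Its LPS libraries held 11, 7.10 and 3.96 CPM in controls and 11.6, 9.80 and 0.613 CPM in knockouts, so that knockout 3 lay far below the other 5. Eif2ak2 went from 38.1, 32.7 and 31.8 to 111, 88.9 and 49.967 CPM in controls and from 30.1, 17.5 and 40.0 to 143, 49.3 and 48.4 CPM in knockouts (1.37 ± 0.29 SE, adjusted p = 0.0085). Ddx60, a helicase that assists RNA sensing, went from 0.868, 1.19 and 0.865 to 59.8, 24.5 and 18.7 CPM in controls and from 1.06, 1.12 and 0.646 to 129.9, 7.81 and 6.38 CPM in knockouts (5.39 ± 0.89 SE, adjusted p = 0.0073). Ifih1, which detects long double-stranded RNA, gave 2.76 (adjusted p = 0.0065) and Dhx58 3.00 (adjusted p = 0.015).

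Enzymes and the ADP-ribosylation genes rose in full, 4 of 4 and 3 of 3, though Isg20 had passed the filter only through the LPS libraries. Samhd1 went from 15.8, 4.88 and 8.55 to 50.1, 33.7 and 13.4 CPM in controls and from 10.8, 7.97 and 12.6 to 46.5, 27.3 and 15.2 CPM in knockouts (1.62 ± 0.35 SE, adjusted p = 0.011). LPS control 3 and LPS knockout 3 both lay below saline control 1. Rsad2 gave 4.04 (adjusted p = 0.0074), Cmpk2 2.91 (adjusted p = 0.0079) and the exonuclease gene Isg20 3.46 (adjusted p = 0.0052). Parp14, an ADP-ribosyltransferase, read 0.919, 1.32 and 1.24 CPM in saline controls and 35.5, 9.29 and 5.28 CPM in LPS controls, and 1.16, 0.391 and 0.431 against 181, 10.0 and 4.59 CPM in knockouts (5.22 ± 1.09 SE, adjusted p = 0.024). LPS knockout 1 stood far above the other LPS libraries, and the call held in 5 of 12 fits with 1 library left out. Parp9 gave 3.53 (adjusted p = 0.0023) and its partner Dtx3l 2.97 (adjusted p = 0.0046). All 8 remaining members rose, from 2.39 for Lgals3bp to 6.17 for Ifi44, which went from 0.0510, 0.228 and 0.379 to 35.9, 17.1 and 4.62 CPM in controls and from 0.317, 0.489 and 0.502 to 47.8, 24.7 and 6.38 CPM in knockouts. Between them lay Sp100 at 5.19, Trim30a at 4.76, Ifi35 at 3.74, Xaf1 at 3.25, Rtp4 at 2.94 and Ifi27l2a at 2.67. Of these 8, Ifi44, Sp100, Ifi35 and Ifi27l2a had passed the filter only through the LPS libraries.

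By genotype, 11 members were called higher in control astrocytes (0.775% of genes), 6 of them among the 21, and 14 in knockout astrocytes (1.35%), 7 of them among the 21. In both genotypes 10 were called: Ifit3, Ifitm3, Lgals3bp, Oasl2 and Rtp4 among the 21, and Bst2, Ifi44, Isg15, Usp18 and Zbp1 among the 15 others. Of the 10, Bst2, Ifitm3, Lgals3bp, Oasl2 and Zbp1 kept the call in both genotypes in every fit with 1 library left out. The other 5 lost it in some: in controls Ifit3 passed in 0 of 6 such fits, Rtp4 in 2, Isg15 in 3 and Usp18 and Ifi44 in 4, and in knockouts Isg15 passed in 2, Ifit3 and Ifi44 in 3 and Usp18 and Rtp4 in 4. The medians over the 21 members were 2.79 in controls and 3.19 in knockouts. These counts depended on the setting: DESeq2 called 28 and 31. Without saline control 1, 2 or 3 the controls gave 6, 5 or 7 calls. Without saline knockout 1, 2 or 3 the knockouts gave 5, 7 or 5, and without LPS knockout 3 they gave 26. Over all genes, fits with 1 library left out called 36 to 476 in controls and 38 to 561 in knockouts, in either direction. Over both genotypes 30 of 33 calls held in every fit with 1 library left out, and Ifi35 held in 9 of 12. All 6 LPS libraries lay above all 6 saline libraries for 17 of the 21 members, where 2.67% of genes did so, and for 12 of the 15 others.

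**Figure D2:**
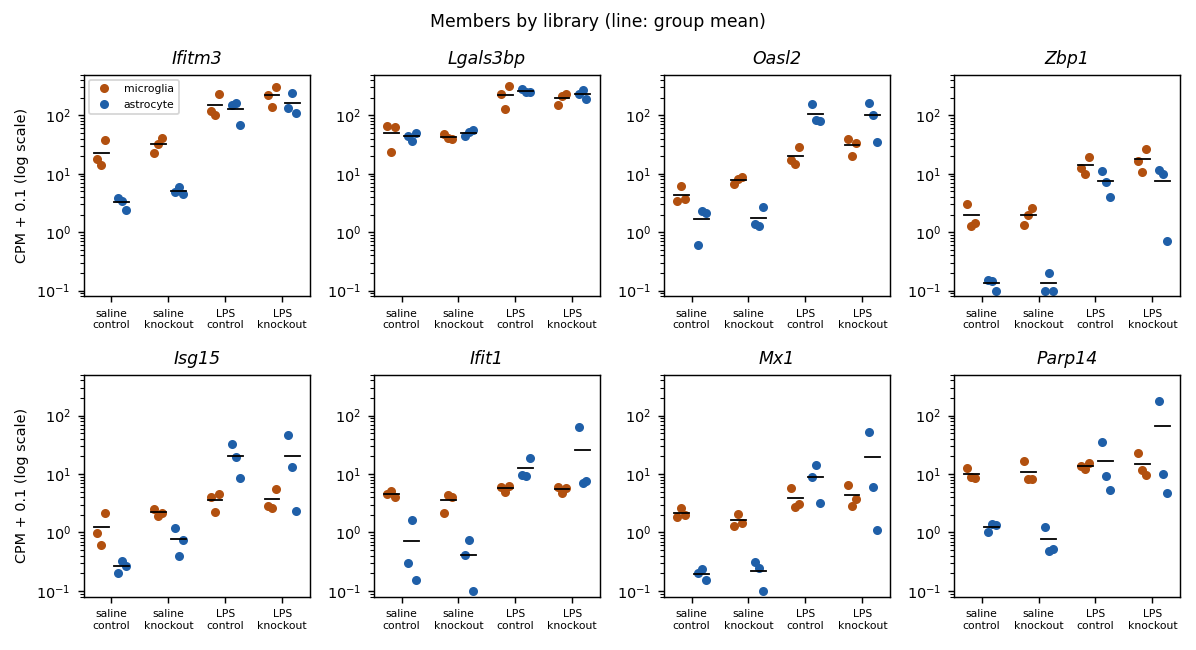
CPM + 0.1 on a log scale of 8 members in each library, by group, for microglia (orange) and astrocytes (blue); dots are single libraries and black lines are means of 3. Ifitm3, Lgals3bp, Oasl2 and Zbp1 sit higher after LPS in both cell types, whereas Ifit1 and Parp14 change level mainly in astrocytes.

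LPS libraries of astrocytes differed widely among themselves. Knockout 1 held the highest of the 6 LPS values for 28 of 37 members and knockout 3 the lowest for 24. Summed over the 37 members, knockout 1 reached 2316 CPM and knockout 3 580 CPM, with 791 to 1440 CPM in the other 4 LPS libraries and 140 to 175 CPM in the 6 saline libraries. The median log2 distance from the saline controls was 4.19, 3.03 and 2.47 in LPS controls 1, 2 and 3, and 4.68, 2.93 and 1.93 in LPS knockouts 1, 2 and 3. The LPS libraries numbered 3, with the lowest medians, were labelled female and those numbered 1 and 2 male. The part of sex in this spread was not tested. The ratio of the highest to the lowest LPS library ran from 1.44 for Lgals3bp to 51.6 for Mx1, with a median of 7.64 over the 35 members with more than 3 counts in the lowest library. Not every member followed knockout 1: the highest value lay in control 1 for Isg20, Lgals3bp, Oas1a, Oas2 and Samhd1, and in knockout 2 for Bst2, Ifi27l2a, Ifitm3 and Sp100. With the libraries numbered 1 of both genotypes left out, 29 members were called over both genotypes, and with those numbered 3 left out 35 were. Microglia LPS libraries were closer together, with a median ratio of 2.56 and a highest of 4.77, for Ifi27l2a. Their medians were 1.03, 0.40 and 1.04 in controls and 1.58, 0.75 and 1.20 in knockouts.

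Markers of other cells moved in the same astrocyte libraries. Of 8 endothelial markers, 7 were called higher after LPS (median log2 fold change 3.09), and their summed level went from 3.57 to 9.76 CPM over the saline libraries to 16 to 48.1 CPM in LPS controls and 32.7 to 86.7 CPM in LPS knockouts. Astrocyte markers, 8 in all, summed to 14359 to 21293 CPM over the 12 astrocyte libraries, and microglia markers to 106 to 297 CPM. The astrocyte sum includes Gfap, which itself rose after LPS. Neutrophil markers reached at most 24 CPM, with Camp and Ltf at 0 in all 4 astrocyte groups and S100a8 and S100a9 called higher. T and NK cell markers stayed at or below 4.79 CPM, with Cd3e, Nkg7 and Klrb1c at 0 in every astrocyte group. Of 5 pericyte or fibroblast markers tested, Kcnj8 and Abcc9 were called higher. The sum over the 6 listed did not rise, at 77.1 to 117 CPM in saline and 59.9 to 88.3 CPM in LPS. Of 8 neuron markers 4 were called higher, with neuron sums of 58.6 to 83.7 CPM in saline and 90.9 to 181 CPM in LPS. Monocyte markers, 6 genes of which Ccr2 and Plac8 were at 0 in both saline groups and none was at 0 in an LPS group, summed to 30.5 to 60.1 CPM in saline, to 113, 79.3 and 31.2 CPM in LPS controls 1, 2 and 3 and to 159, 88.5 and 47 CPM in LPS knockouts 1, 2 and 3. Their sum was highest in LPS knockout 1 and LPS control 1, the 2 libraries with the highest medians over the members, and lowest in LPS control 3 and LPS knockout 3, the 2 with the lowest. Vcan alone of the 6 was tested, and it was not called (log2 fold change 0.80). Oligodendrocyte markers, 6 genes, summed to 1858 to 5019 CPM in astrocyte libraries, and Mog was among those called lower after LPS. The part of any of these cells in the astrocyte result was not tested.

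**Figure D3:**
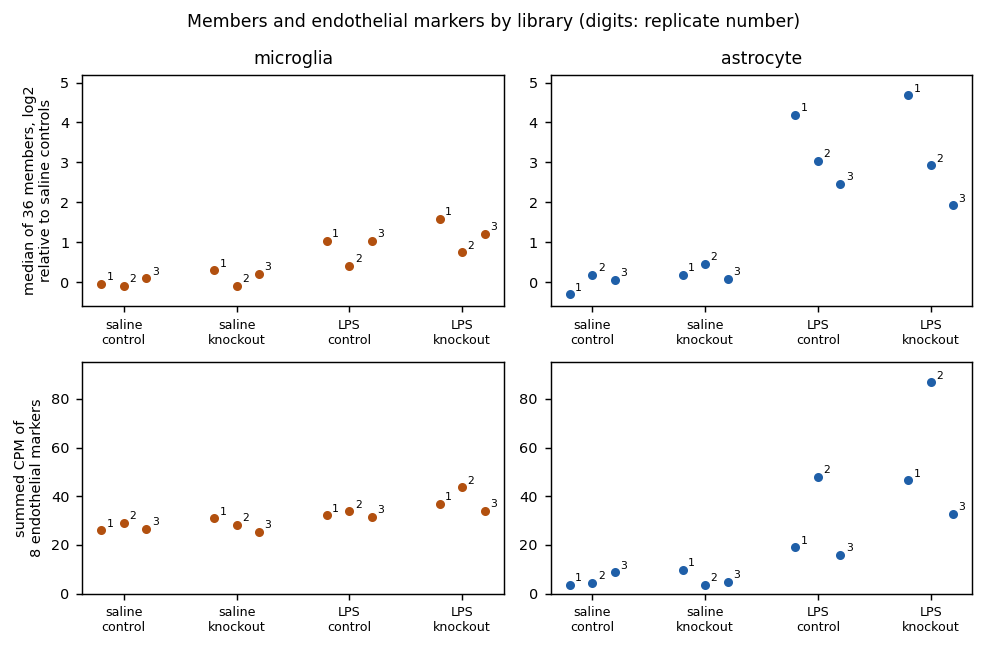
Upper panels: median over 36 tested members of the log2 distance of each library from the saline controls of its cell type. Lower panels: summed CPM of 8 endothelial markers; both are plotted by group, with the replicate number beside each dot. Astrocyte LPS libraries spread from 1.93 to 4.68 in the upper panel and from 16 to 86.7 CPM in the lower.

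In microglia libraries other markers moved. Of 8 microglia markers 5 were called lower after LPS (median -1.05), with sums of 2119 to 4967 CPM in saline and 1336 to 2771 CPM in LPS. T and NK cell markers summed to 0.691 to 3.22 CPM in saline and 9.95 to 37 CPM in LPS, and the 3 tested (Nkg7, Gzma and Ncr1) were called higher. Neutrophil markers fell for 4 of 8. In controls their sum was 709 to 848 CPM in saline and 618 to 920 CPM in LPS, which overlapped. In knockouts it was 1312 to 2465 CPM in saline and 368 to 965 CPM in LPS. Endothelial markers summed to 25.5 to 43.7 CPM in all 12 libraries, and none of the 6 tested was called. Oligodendrocyte markers summed to 1343 to 4087 CPM, and none of the 6 was called. LPS knockout 1, which held the highest of the 6 LPS values for 19 of 37 members, also had the highest monocyte marker sum, 240.9 CPM against 78.6 to 102 CPM in the other LPS libraries. Their part in the microglia result was not tested.

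The LPS response itself was then compared between the cell types in a single fit of all 24 libraries. Of the 19 members that passed the filter on saline libraries alone in both cell types, 11 had a lower response in microglia than in astrocytes and none a higher one, where 1.78% of 24607 genes were called lower and 0.817% higher. Of the 18 others, 7 were called, all lower, which makes 18 of 37. The median difference (microglia minus astrocytes, log2) was -2.25 over the 19 and -0.03 over all genes. The calls with the smallest p were Oasl2 (-3.87 ± 0.49 SE, adjusted p = 6e-05), Bst2 (-3.87 ± 0.60 SE, adjusted p = 0.00054), Ddx60 (-5.15 ± 0.79 SE, adjusted p = 0.00059), Isg15 (-4.72 ± 0.77 SE, adjusted p = 0.00093), Ifitm3 (-2.38 ± 0.39 SE, adjusted p = 0.001) and Ifit1 (-4.75 ± 0.80 SE, adjusted p = 0.0012). The others were Usp18, Mx1, Parp9, Cmpk2, Trim30a, Sp100, Parp14, Zbp1, Dtx3l, Rtp4, Ifit2 and Ifih1. With 1 library left out Ifit2 held in 11 of 24 fits and Ifih1 in 6. All 3 ADP-ribosylation genes were among them. Cell type went together here with brain region, preparation and the annotation used for counting, and their effects cannot be told apart. Reads without a feature made up 56.2 to 72.7% of reads in microglia libraries and 15.9 to 21.1% in astrocyte libraries. Genes with a count numbered 28845 to 33076 in microglia libraries and 22272 to 25177 in astrocyte libraries. In saline, 65% of genes read higher in every microglia library than in every astrocyte library. The part of these differences in the smaller microglial response was not tested.

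For a few members no difference between cell types was shown. Lgals3bp gave -0.16 ± 0.29 with a 95% interval of -0.76 to 0.45, Ifi27l2a -0.24 ± 0.61 (-1.51 to 1.02), Ifitm2 0.39 ± 0.62 (-0.88 to 1.66) and Oasl1 1.24 ± 1.01 (-0.83 to 3.31). The interval of Lgals3bp is the narrowest of these and the others leave room for differences of more than 2-fold. Members with and without a GAAANNGAAA match fell on both sides. Ifit1, Isg15 and Ddx60, whose windows hold the match, and Oasl2 and Ifitm3, whose windows do not, had the lower microglial response. For Oas1a (-1.35, adjusted p = 0.52) and Ifitm2, with the match, and for Lgals3bp and Oasl1, without it, no difference was called.

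**Figure D4:**
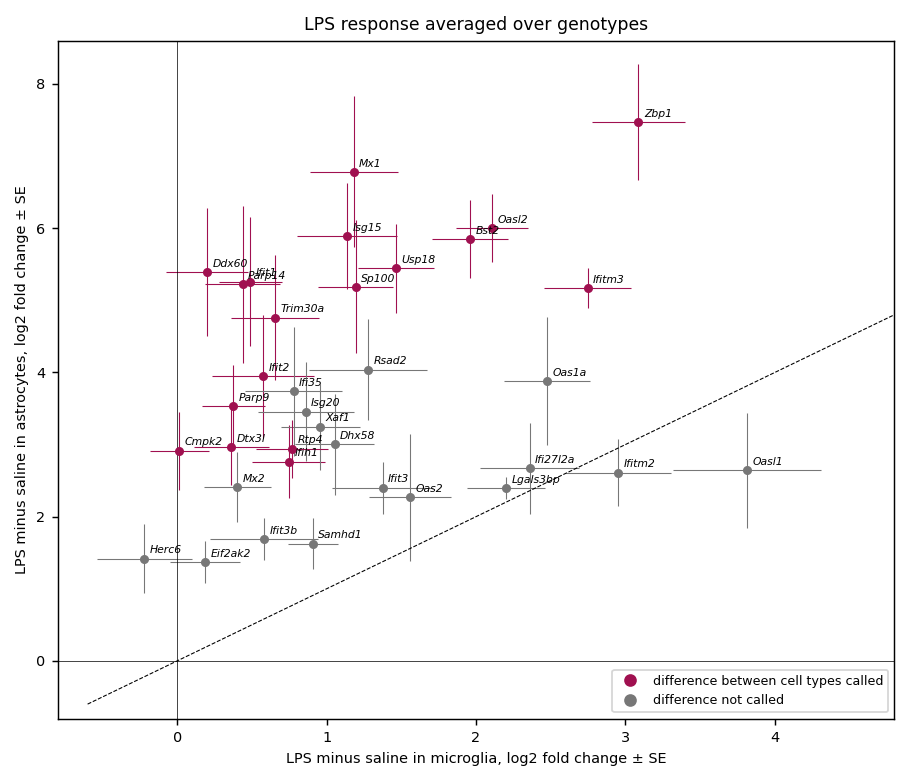
LPS response averaged over genotypes in microglia (x axis) and astrocytes (y axis) for the 35 members tested in both, as log2 fold change ± SE; the dashed line marks equal responses, and members with a called difference between cell types are in dark red. All dark red points lie above the line, and Oasl1 and Ifitm2 are the 2 points below it.

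Levels were also compared between the cell types. In saline the mean CPM was higher in microglia for 28 of 37 members, and for 21 every microglia library lay above every astrocyte library, among them Ifit1, Isg20, Mx1, Oas1a, Oasl2 and Zbp1, where 65% of the 24607 genes did so, a share no lower than that of the members. Eif2ak2, Ifit3 and Ifit3b showed the opposite without overlap, as did 4.96% of genes. After LPS the mean was higher in astrocytes for 24 of 37. Every astrocyte LPS library then lay above every microglia LPS library for Cmpk2, Eif2ak2, Ifi44, Ifit1, Ifit2, Ifit3, Ifit3b, Mx2 and Rsad2 (9 of 37, against 4.39% of genes), and the reverse held for Dhx58, Ifi27l2a, Oas1a, Oas3, Samhd1 and Sp100 (6 of 37, against 65%). These are levels from libraries scaled separately, given as a description with no test.

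The pathway upstream of the members was read from a list of 45 genes. Transcripts of the 10 interferon ligands were almost absent: Ifna1, Ifna4, Ifna5, Ifne, Ifnl2 and Ifnl3 had 0 counts in all 24 libraries, and Ifnb1 had 1 count in the saline controls of astrocytes and 0 elsewhere. The group means of Ifna2, Ifng and Ifnk were at most 0.0907, 0.0358 and 0.785 CPM. None of the receptor genes tested, 6 in microglia and 5 in astrocytes, was called. Ifnar1 gave 0.17 (adjusted p = 0.57) in microglia and 0.19 (adjusted p = 0.55) in astrocytes. Of 34 pathway genes tested in microglia 3 rose: the transcription factor gene Irf7 (1.84, adjusted p = 0.011), the feedback inhibitor gene Socs3 (2.46, adjusted p = 0.00025) and the kinase gene Ikbke (1.84, adjusted p = 6.6e-05). Of 33 tested in astrocytes 8 rose, and none fell in either.

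In astrocytes the called pathway genes included Irf7 (3.35, adjusted p = 0.00053) and Irf9 (1.59, adjusted p = 0.0015), a subunit of the complex that binds the ISRE. Stat2, another subunit of that complex, was not called (1.71, adjusted p = 0.052). Also called in astrocytes were Irf1, Irf5, Irf8, the LPS co-receptor gene Cd14 and the RNA sensor gene Ddx58. The difference between cell types was called lower in microglia for Irf9, Irf5, Irf8, Cd14, Ddx58 and Tmem173, among others, and higher for Socs3 and Ikbke.

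Loss of Serpine2 changed no member past the threshold in any comparison. In microglia edgeR called 0 of 36 members between knockouts and controls in saline (0% of genes called), 0 in LPS (0%), 0 over both injections (0.0045%) and 0 for the difference in LPS response between genotypes (0%); at an unadjusted p under 0.05 the counts were 2, 1, 4 and 1. Astrocytes likewise gave 0 called members in saline (0.0055% of genes), in LPS (0.0055%), over both (0.0055%) and for the difference in response (0%), with 0, 0, 2 and 0 at an unadjusted p under 0.05. DESeq2 called 0 members in each of these 8 comparisons. Without the filter on low counts edgeR called 2 members in LPS astrocytes, Rsad2 and Parp14, 1 over both injections, Rsad2, and 1 for the difference in response, Parp14. The share of all genes called without the filter is not given here. LPS knockout 1 stood far above the other LPS libraries for both genes. Parp14 read 181, 10.0 and 4.59 CPM in LPS knockouts and 35.5, 9.29 and 5.28 CPM in LPS controls. Rsad2 read 143, 10.2 and 12.5 CPM in LPS knockouts and 28.2, 14.1 and 14.3 CPM in LPS controls. The single gene called by edgeR with the filter was Serpine2 itself in each comparison that had a call.

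Most estimates in microglia were small and positive: 29 of 36 members had a higher mean in knockouts over both injections, with a median log2 difference of 0.25 against -0.01 over all genes. Oasl2 had the smallest p. In saline it read 3.28, 5.99 and 3.63 CPM in controls and 6.60, 8.03 and 8.73 CPM in knockouts, and in LPS 17, 14.4 and 28.5 CPM in controls and 39.3, 19.9 and 33.8 CPM in knockouts, a difference of 0.76 ± 0.24 (unadjusted p = 0.0056, adjusted p = 1). The genotypes did not overlap in saline and overlapped in LPS. Sp100 gave 0.76 ± 0.25 (adjusted p = 1), with 3.28, 5.82 and 3.27 CPM in saline controls and 7.46, 7.11 and 7.58 CPM in saline knockouts, again apart. In saline microglia 5 of 36 members lay wholly higher in knockouts and 1 wholly lower, against 563 and 380 of 22230 genes. Oas3 gave 0.80 ± 0.33 (adjusted p = 1). For Ifih1 the difference was -0.45 in saline and 0.77 in LPS, and the change between them, 1.22 ± 0.49, was not called (adjusted p = 1); its LPS values were 6.93, 5.39 and 6.66 CPM in controls and 17.7, 7.64 and 6.90 CPM in knockouts, with knockout 1 far above the rest. Ifi27l2a had the opposite sign for that change, -1.30 ± 0.65 (adjusted p = 1). Neutrophil markers summed to 709 to 848 CPM in saline control microglia and to 1312 to 2465 CPM in saline knockout microglia, with none of the 8 called, and their part in these estimates was not tested.

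In astrocytes the smallest p over both injections was that of Rtp4, a chaperone gene, at 0.89 ± 0.38 (adjusted p = 1), with 8.58, 5.12 and 10.4 CPM in LPS controls and 30.5, 12.2 and 6.89 CPM in LPS knockouts, which overlapped. Ifitm3 gave 0.52 ± 0.24 (adjusted p = 1). In saline astrocytes the smallest p belonged to Usp18 at 1.88 ± 0.96, Ifitm3 at 0.68 ± 0.35 and Dhx58 at -1.78 ± 1.03, none of them called. Of these, Ifitm3 did not overlap between genotypes in saline. In that comparison 4 of 36 members lay wholly higher in knockouts and 0 wholly lower, against 749 and 905 of 18188 genes. In LPS astrocytes Rsad2 gave 1.55 ± 0.87, from 28.2, 14.1 and 14.3 CPM in controls and 143, 10.2 and 12.5 CPM in knockouts, and the sign rested on knockout 1: without it the difference was -0.74. For Parp14 the 95% interval of the knockout difference in LPS ran from -0.90 to 4.82, and for Lgals3bp from -0.60 to 0.28. The difference in LPS response between genotypes was -3.36 ± 1.75 for Oas2, -1.78 ± 1.17 for Usp18 and -1.98 ± 1.41 for Isg15, each with an adjusted p of 1. A p above the threshold does not show that genotypes were alike.

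**Figure D5:**
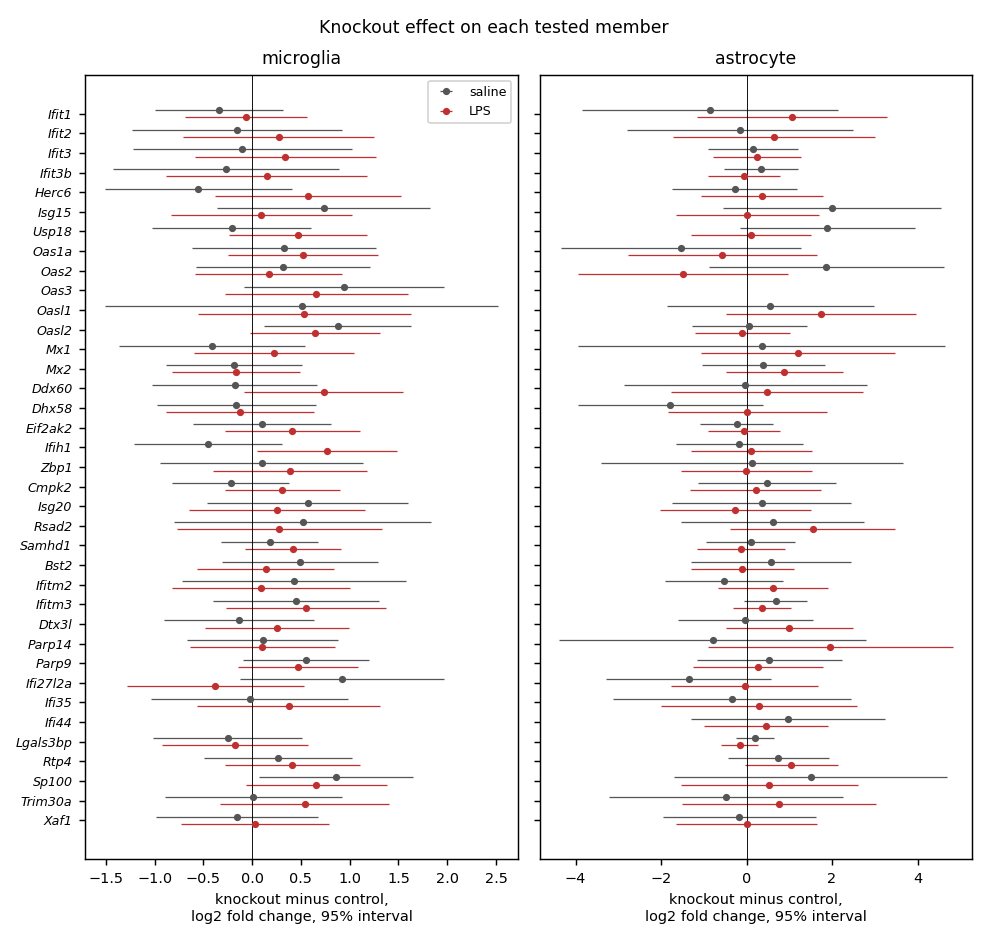
Knockout minus control in saline (grey) and LPS (red) for each tested member, as log2 fold change with its 95% interval, in microglia (left) and astrocytes (right, wider axis). Intervals cross 0 for all members in astrocytes and for most in microglia (Oasl2 and Sp100 in saline and Ifih1 in LPS being the exceptions), and none was called after correction over all genes.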

How the data were processed

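RNA-seq of 24 mouse libraries was available as counts per gene: per the submitters' processing notes the authors aligned reads with STAR 2.6.0c and counted them with HTSeq, and GRCm38 and GRCm39 are both named there. The strand setting is not given in the sources used here. The deposited whole-number counts were used as they stand. Rows that name no gene were left out: reads without a feature made up 56.2 to 72.7% of reads in microglia and 15.9 to 21.1% in astrocytes, and reads that matched several places 5.58 to 13.0% and 16.1 to 24.0%. Such reads count for no gene, so members with near-identical copies can be undercounted. No 2 libraries held identical counts. Symbols, positions and exon lengths came from GENCODE M21 (GRCm38).

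Genes were kept by filterByExpr (minimum count 10, minimum total 15) and tested with edgeR 4.0.16 in R 4.3.3 (TMM, robust glmQLFit, two-sided glmQLFTest), 12 libraries per cell type and 24 for the difference between cell types, with Benjamini-Hochberg adjustment over all genes tested. The test was tried on simulated counts first. DESeq2 1.42.0, other filters, size factors, a sex covariate, a replicate block and single libraries left out were the alternatives. Members and lists were chosen with earlier results of these data known. All members may be named. Values per library are given for the member with the highest mean of each role and for called members with the smallest p, and up to 3 members with the smallest p are named where none was called. Mx1 was added after its values were seen. A result for 1 pathway gene is not reported here.

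Replicate numbers are shared between groups, and the labels speak of sibling pairs. Deviations from the group means of same-numbered controls and knockouts correlated at 0.30, 0.16 and 0.35 in astrocyte LPS libraries, over 18188 genes. In the other 3 sets 1 or more of the pairs was below 0.1, so the numbers were not taken to pair those libraries. With the replicate number as a block within each injection, edgeR called 0 members in each of the 8 comparisons between genotypes.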

Additional observations from a re-analysis of the deposited data

Results flagged for a closer look

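The LPS response differed between microglia and astrocytes for 18 members, tested as an interaction of cell type and injection in edgeR's quasi-likelihood fit of all 24 libraries, and each difference was lower in microglia. For 11 of them, which passed the filter on low counts in the saline libraries of both cell types, the log2 difference (microglia minus astrocytes) was -5.15 for Ddx60, -4.76 for Parp14, -4.06 for Trim30a, -3.87 for Oasl2, -3.36 for Ifit2 and -3.13 for Parp9. It was -2.86 for Cmpk2, -2.58 for Dtx3l, -2.38 for Ifitm3, -2.14 for Rtp4 and -1.997 for Ifih1, and the calls for Ifit2 and Ifih1 held in 11 and 6 of 24 fits with 1 library left out. The other 7 passed in astrocytes only through the LPS libraries, so that a rise there was built into their selection: -5.59 for Mx1, -4.75 for Ifit1, -4.72 for Isg15, -4.41 for Zbp1, -4.06 for Sp100, -3.95 for Usp18 and -3.87 for Bst2. Cell type cannot be told apart from brain region, preparation and annotation in this design. The share of reads without a feature also differed between the cell types, and its part was not tested.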

How the results depend on the processing

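The count of members called after LPS in astrocytes of 1 genotype moved most. In controls (11 called) it was 28 with DESeq2, 33 with no filter on low counts, 24 when only the 2 groups compared were fitted, and 5 to 15 with 1 library left out. In knockouts (14 called) it was 31 with DESeq2, 35 with no filter, and 5 to 26 with 1 library left out. In knockout microglia (10 called) it was 5 to 11. The number of all genes called, in either direction, also moved with 1 library left out. It ran from 36 to 476 in control astrocytes, from 38 to 561 in knockout astrocytes and from 112 to 215 in knockout microglia. For the other settings the share of all genes called is not given here. Leaving out the astrocyte LPS libraries numbered 1 of both genotypes, an alternative chosen after seeing the data, gave 21 in controls, and leaving out those numbered 3 gave 25 in controls and 31 in knockouts. With no filter, edgeR called 2 members between genotypes in LPS astrocytes, 1 over both injections and 1 for the genotype difference in the LPS response, where it called 0 with the filter. The members were Rsad2 and Parp14, and both were highest in LPS knockout 1. The causes were not tested. The difference of Rsad2 between genotypes in LPS astrocytes (1.55) became -0.32 without the libraries numbered 1 and ran from -0.74 without LPS knockout 1 to 2.04 without LPS knockout 2.

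Over both genotypes the counts held within 1.5 times under the alternatives run: 12 to 16 in microglia and 30 to 35 in astrocytes with 1 library left out, and 16 to 23 of 37 for the difference between cell types. Over all genes the same fits called 420 to 1178, 727 to 1714 and 447 to 1036 in either direction. With the replicate number as a block, 10, 10 and 17 members were called in microglia (controls, knockouts and over both), 16, 17 and 33 in astrocytes, 16 for the difference between cell types and 0 between genotypes, and no count moved by over 1.5 times. Many members had few counts in the saline astrocyte libraries.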

Other observations

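Genes outside the list also marked the response to LPS in both cell types. In astrocytes Gfap, the intermediate filament gene that marks reactive astrocytes, rose (2.97 ± 0.33 SE, adjusted p = 0.00011, edgeR). In microglia P2ry12, a purinergic receptor gene of resting microglia, fell by 2.75 on the log2 scale (adjusted p = 2.3e-05), and Siglech gave -1.88 (adjusted p = 0.00058).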
